A study of Homo sapiens with 2 samples.

Results

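The regions described here are the peaks of the SOX4 library that lay in 15 autosomal windows known for segmental duplications. A peak was counted in a window when its midpoint fell inside the window's hg19 bounds, whatever its score. This gave 288 of the 4201 peaks in the list. The rule uses position only. The windows covered 76.2 Mb, or 2.71% of the autosomes up to the last peak of each chromosome. They held 6.86% of all peaks (95% interval 6.11 to 7.66%) and 7.38% of the autosomal peaks (6.58 to 8.25%).

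Binding was mapped by chromatin immunoprecipitation with sequencing (ChIP-seq) in LN229, an established human glioblastoma cell line. The design text speaks of prostate cells, and the title and sample labels, which name glioblastoma, were followed. One library came from cells transfected with a plasmid for SOX4 carrying a Flag and an HA tag, the other from cells transfected with a plasmid for GFP with the same tags, and both were precipitated with anti-Flag antibody. The labels describe the first as overexpressing SOX4, whose level was not measured here, and the antibody was directed at the tag. Each condition had 1 library and only the peak list of the SOX4 library was analysed here, so replicate error could not be estimated, SOX4 and GFP cells were not compared, and the read depth is unknown. All intervals are exact 95% intervals (Clopper-Pearson for shares, Poisson for counts). They cover counting error only, and they are too narrow where neighbouring peaks depend on each other.

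SOX4 is an HMG-box transcription factor that binds the minor groove of DNA and bends it, and it acts in progenitor cells of the nervous system and in several tumours. Segmental duplications, also called low-copy repeats, are long blocks of sequence present at more than 1 place in the genome with nearly the same letters. Neighbouring copies can misalign in meiosis, which causes recurrent deletions and duplications such as DiGeorge syndrome at 22q11, Prader-Willi and Angelman syndromes at 15q11-q13 and Smith-Magenis syndrome in the short arm of chromosome 17. Short reads from such copies are hard to place, and the sources used here do not say how reads with several matching positions were treated. The band names used for the windows and their link to these syndromes are general knowledge. No hg19 sequence, gene annotation or duplication map was used, so no peak was assigned to a gene or to a duplicated block, and no peak sequence is shown.

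The windows differed widely in peak density. Peaks were found in 10 windows and none in 5. The 3p12 window (chromosome 3 from 75 to 76 Mb) was the densest, with 42 peaks, or 42 per Mb (30.3 to 56.8). The 22q11 window (chromosome 22 from 18.5 to 25.5 Mb) held the most peaks, 118, at 16.9 per Mb (13.95 to 20.2). The 17q12 window (chromosome 17 from 34 to 37 Mb) followed with 21 peaks at 7 per Mb (4.33 to 10.7). Among these 3 windows the order was clear of counting error, since the interval of 3p12 lay above that of 22q11 and that of 22q11 above that of 17q12.

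When peaks at most 100 kb apart were joined into 1, the values of the first 2 changed order, with 1.71 joined regions per Mb at 22q11 and 1 at 3p12. The value at 3p12 was a single region and no interval was computed, so these joined densities do not rank the 2 windows. With peaks within 5 kb joined, 3p12 stayed ahead, with 11 per Mb against 5.29. Without joining, each interval from 17q12 down overlapped that of the next window in order, so these neighbours could not be ranked. Still, 17q12, 2q21 and 16p13-p11 lay above 15q11-q13. The 2q21 window (chromosome 2 from 130 to 133 Mb) held 13 peaks at 4.33 per Mb (2.31 to 7.41). The 16p13-p11 window (chromosome 16 from 14.7 to 33.2 Mb), the longest at 18.5 Mb, held 64 peaks at 3.46 per Mb (2.66 to 4.42). The 2p11 window (chromosome 2 from 87 to 90.2 Mb) held 10 peaks at 3.13 per Mb (1.5 to 5.75). The intervals of these 6 windows lay above the density of the rest of the autosomes, 1.32 per Mb. At 2q21 this rested on the end of the window, since with 0.25 Mb taken off both ends its density was 0. These intervals count neighbouring peaks as independent. With peaks at most 100 kb apart joined, 17q12 had 0.667 regions per Mb, 2p11 0.625, 16p13-p11 0.432 and 2q21 0.333. Single windows were not compared with a rest joined in the same way. The 2 windows next in order were at about the density of the rest, 1.32 per Mb. The 17q21 window (chromosome 17 from 43 to 45 Mb) held 3 peaks at 1.5 per Mb (0.309 to 4.38), and the 15q11-q13 window (chromosome 15 from 22.1 to 34 Mb) held 14 peaks at 1.18 per Mb (0.643 to 1.97).

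Single peaks were found in the remaining occupied windows. The 5q13 window (chromosome 5 from 68.5 to 71 Mb) held 1 peak and the 8p23 window (chromosome 8 from 6.9 to 12.6 Mb) held 2. No peak lay in the windows at 2q13 (chromosome 2 from 110 to 114.5 Mb), 10q11 (chromosome 10 from 46 to 52 Mb), 11q14 (chromosome 11 from 89 to 90 Mb), 12p13 (chromosome 12 from 8 to 9.7 Mb) and 17p12-p11 (chromosome 17 from 15 to 20.2 Mb). The empty windows made up 18.4 Mb, 24.1% of the length of all windows. Membership in the set of windows thus went with very unequal numbers of peaks, and 3 windows, 22q11, 16p13-p11 and 3p12, held 224 of the 288 peaks (77.8%).

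**Figure D1:**
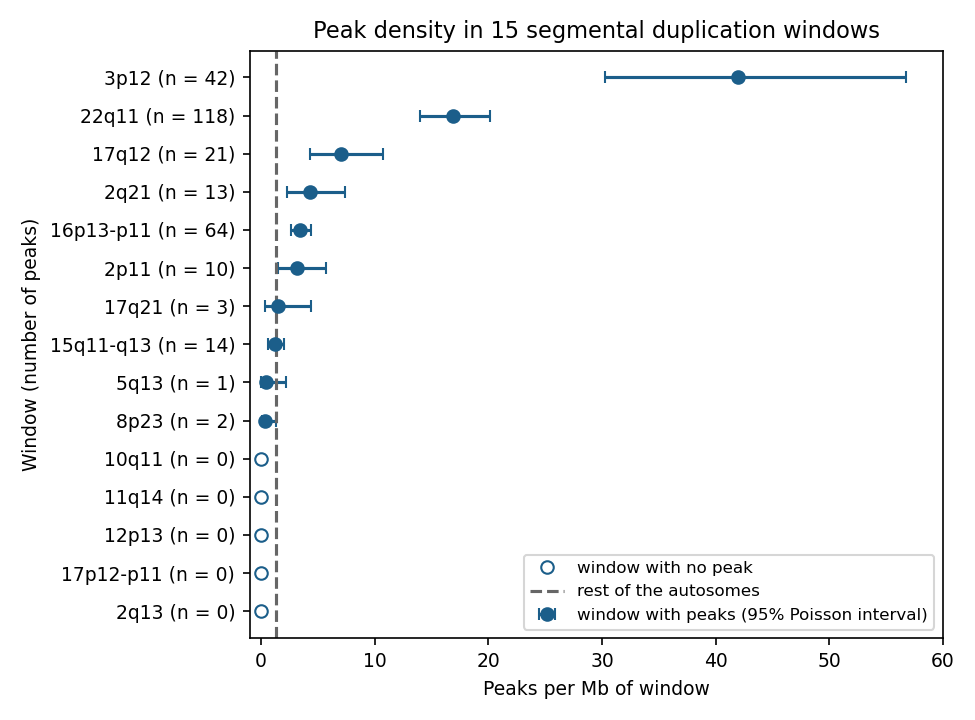
Peaks per Mb (x axis) in each of the 15 windows (y axis, with the number of peaks), with exact 95% Poisson intervals as bars and open points for windows with no peak. The dashed line is the density of the rest of the autosomes, 1.32 per Mb, and the intervals of 3p12, 22q11, 17q12, 2q21, 16p13-p11 and 2p11 lie above it. The intervals count neighbouring peaks as independent and are too narrow where they are not.

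Pooled over the windows, the density was 3.78 per Mb, which was 2.86-fold that of the rest of the autosomes (2.53 to 3.23). This excess depended on how closely spaced peaks were counted. When peaks at most 100 kb apart were joined into 1, the windows held 36 joined regions and the fold was 1.20 (0.839 to 1.68), an interval that includes 1. Without 22q11 the fold was 1.87. The rest of the autosomes itself is uneven. Against a rest without chromosomes 7, 9 and 20 and without 2 Mb at the fullest stretch of each other chromosome, the fold was 6.20 (5.45 to 7.05). Those stretches were picked from the peaks of this list and taken out of the rest only, so a higher fold follows from that choice.

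Set against their own surroundings, the windows were not shown to be denser. The 30 flanks of 2 Mb held 252 peaks at 4.2 per Mb, and the windows' density was 0.900-fold that (0.757 to 1.07). Like the windows, the flanks were uneven: 18 of the 30 were empty, and 3 held 193 of their peaks (76.6%). These 3 were the upper flank of 2p11 with 95 peaks, the upper flank of 16p13-p11 with 58 and the lower flank of 15q11-q13 with 40, which by general knowledge of hg19 lie on the side towards the centromere. Without them, a choice made after the values were seen, the windows were 3.46-fold denser than the flanks (2.61 to 4.66). With all other flanks kept, leaving out 22q11 and its flanks gave 0.580 and leaving out 2p11 and its flanks gave 1.36, so the direction of this comparison rested on a few stretches.

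The peaks filled a small part of each window. Of 762 bins of 100 kb, 59 (7.74%) held a peak midpoint. Peaks at most 100 kb apart, measured from the end of one to the start of the next, were chained into stretches, and 9 stretches had 10 or more peaks inside a window. They held 225 of the 288 peaks (78.1%) in 1301 kb, which was 1.71% of the windows' length. Counting peaks beyond a window's edge, 79.5% of the members lay in stretches of 10 or more. The share was 77.4% in the flanks and 60.9% in the whole list, so crowding was not particular to the windows. Of the members, 17 had no other peak within 100 kb, as had 10 of 252 flank peaks and 808 of 4201 in the list.

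At 22q11, 105 of the 118 peaks lay in 3 stretches, in a window that held 80.8% of the 146 peaks on chromosome 22 on 13.7% of its length. The stretch from 18664291 to 18884512 held 40 peaks with scores from 50.9 to 262 and a median of 97.1. That from 20637860 to 20705526 held 14 peaks with scores from 50.6 to 158 and a median of 79.8. The stretch from 21465695 to 21708919 held 51 peaks, the most of any stretch in the windows, with scores from 50.3 to 577 and a median of 91.0. The spacing of peaks was alike in the 3, with median distances between neighbouring midpoints of 2865, 2411 and 2391 bp. Such spacing was not particular to 22q11, since the medians in the stretches of 10 or more peaks at 16p13-p11 ran from 2630 to 4173 bp. The highest peak of the window, from 21596938 to 21601495 (4558 bp, score 577), lay in the third. Of the other 13 peaks, 4 formed a short group from 20325312 to 20350346 with a highest score of 225, and 1, from 19006345 to 19006890, stood alone with a score of 52.7. Beyond the third stretch peaks were few and weak. The 6 peaks there that had no neighbour within 100 kb, together with a pair from 23186536 to 23246227, reached a highest score of 97.3.

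At 3p12 all 42 peaks formed a single stretch from 75679114 to 75998575. It spanned 319 kb, and the window held 38.9% of the 108 peaks on chromosome 3 on 0.505% of its length. Scores ran from 51.6 to 2313 with a median of 107, the highest median of the occupied windows. The highest peak, from 75728839 to 75739313, was 10475 bp wide with a score of 2313. A peak from 75692957 to 75699257 (6301 bp) scored 1204, and one from 75739948 to 75745700 (5753 bp) scored 832. High peaks stood among weak ones, since 9 of the 42 peaks scored under 60. The nearest peak below the window was 6131 kb from its edge and the nearest above it 2384 kb, so this stretch stood alone on its part of the chromosome. Its last peak, with a score of 88.3, lay 1.95 kb inside the window's upper bound.

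In the 16p13-p11 window the peaks were crowded at the end nearest the centromere. Above 32 Mb lay 59 of the 64 peaks, in 4 stretches, and the 17.3 Mb of the window below that held 5. The stretch from 32097308 to 32154985 had 11 peaks with a median score of 132 and a highest score of 496. That from 32401914 to 32552370 had 17 peaks with a median of 76.7 and a highest of 193. The next, from 32789710 to 32848884, also had 17 peaks but in a span of 59.2 kb in place of 150 kb, and its median was 128 and its highest 329. That from 33040444 to 33102331 had 14 peaks with a median of 86.8 and the highest score of the window, 678, in a 4365 bp peak from 33040444 to 33044808. The stretches with 17 peaks each thus differed in packing: peaks covered 40.4% of the closer one and 10.5% of the looser one. Below 32 Mb, the 5 peaks scored 53.7, 80.4, 53.3, 62.1 and 108 in order of position. At the upper bound of this window the last peak inside scored 57.4 and the first outside 50.9, at 98.0 and 137 kb from the bound.

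On chromosome 17 the windows differed from empty to dense. At 17q12, 19 of the 21 peaks lay from 36284413 to 36405544, with scores from 54.7 to 946 and a median of 85.3. The 7361 bp peak from 36296579 to 36303939 scored 946, and the 3678 bp peak from 36401867 to 36405544 scored 624. The other 2 peaks of this window, from 34674550 to 34743203, scored 62.9 and 54.3. At 17q21, the 3 peaks lay within 6.22 kb, from 43590394 to 43596609, and scored 355, 53.9 and 71.7. In the 17p12-p11 window no peak was listed over 5.20 Mb, and the nearest peak above its edge was 1032 kb away with a score of 84.2.

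On chromosome 2 the windows at 2p11 and 2q21 held few peaks, and the 3 highest-scoring members were at 2p11. At 2p11, 6 peaks lay from 89830455 to 89885897, and peaks covered 90.1% of that span. Of these, 3 scored exactly 3100, a value shared by many of the highest peaks in the list: from 89830455 to 89847134 (16680 bp), from 89848319 to 89861872 (13554 bp) and from 89863779 to 89880381 (16603 bp). The 3 peaks between and beyond them scored 246, 55.7 and 90.8. A second group of 4 peaks, from 87573181 to 87621471, was weak, with scores from 64.4 to 73.3. At 2q21, 9 peaks from 132768624 to 132830096 scored between 53.0 and 449, and 4 peaks from 132966428 to 132988288 scored 359, 73.4, 812 and 1989. The highest of these was 7967 bp wide, from 132980322 to 132988288, and the next, from 132974019 to 132977796, was 3778 bp wide. The latter 4 belonged to a stretch of 17 peaks that ran on past the window. The first peak outside, from 132994628 to 133006806, scored 3100, and its midpoint lay 0.717 kb beyond the edge. The bound of this window therefore separated peaks of 1 stretch.

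Most peaks of the 15q11-q13 window had low scores. None of its 14 peaks belonged to a stretch of 10 or more, as at 2p11, 17q21, 5q13 and 8p23. Their scores ran from 51.1 to 114 with a median of 57.8, and their median width was 686 bp. Peaks outside such stretches in the rest of the autosomes had similar medians, 58.4 and 668 bp. The largest group, 8 peaks from 28705960 to 29025030, scored from 52.0 to 70.3 with widths from 624 to 802 bp. Its median spacing was 41618 bp, against 2391 to 4799 bp in the 9 stretches of 10 or more peaks. The highest peak of the window, from 22712978 to 22714261 (1284 bp), scored 114. The 5q13 peak, from 69192748 to 69193530 (783 bp), scored 59.1. At 8p23 the peaks from 7888763 to 7889421 (659 bp) and from 12410088 to 12410733 (646 bp) scored 69.7 and 50.9. Of the 17 peaks in these 3 windows, the 1284 bp peak was the only one to score 100 or more.

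**Figure D2:**
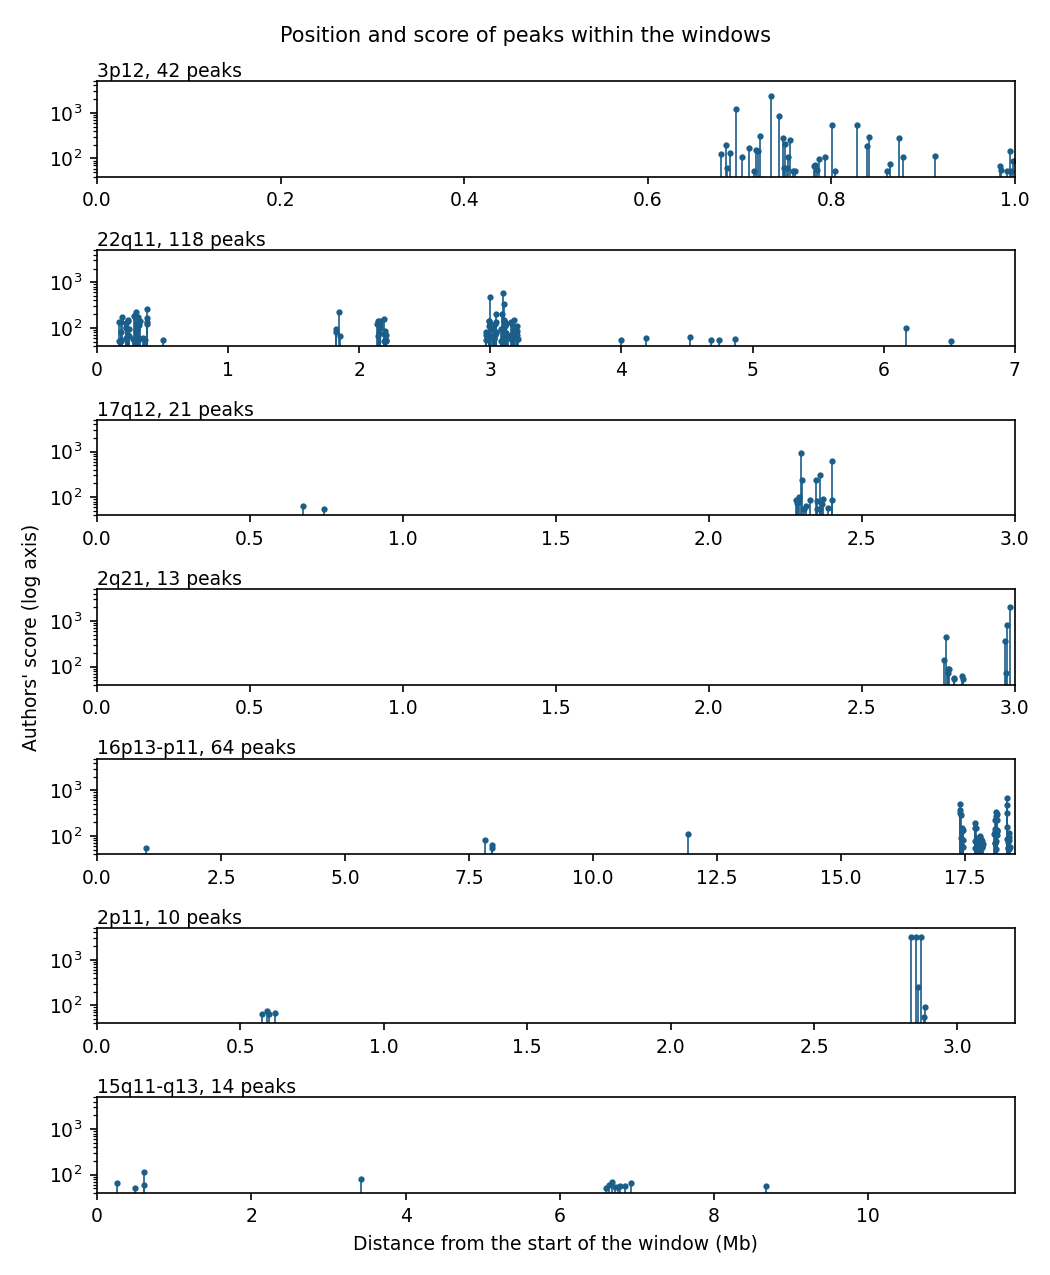
Score (y axis, log scale) against distance from the start of the window in Mb (x axis) for every peak in the 7 windows with 10 or more peaks, 1 point per peak. Peaks stand in a few narrow groups, with 3 large stretches at 22q11, 1 at 3p12 and 4 near the right-hand end of 16p13-p11.

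In width, the members had a median of 858 bp (quartiles 664 and 1306 bp), against 826 bp (640 and 1402 bp) in the rest of the autosomes. Peaks in the 2 Mb flanks had a median of 929.5 bp. Among windows with 10 or more peaks, the median width was greatest at 3p12 (1084 bp) and 16p13-p11 (988 bp) and least at 15q11-q13 (686 bp). At 22q11 it was 786 bp. Widths at 2p11 were split, with a median of 912 bp and an upper quartile of 10525 bp. Peaks covered 7.33% of the 3p12 window, 1.70% of 22q11 and 1.65% of 2p11, so that 10 peaks at 2p11 covered nearly the same share of their window as 118 at 22q11. Over all windows the covered share was 0.524%, against 0.833% in the flanks and 0.217% in the rest of the autosomes.

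The median score of the members was 85.0 (quartiles 59.8 and 139), against 75.4 (56.2 and 166) in the rest of the autosomes. In the flanks it was 93.7 (58.8 and 246), and 46.8% of the flank peaks scored 100 or more (40.5 to 53.2%). Of the members, 117 scored 100 or more (40.6%, 34.9 to 46.5%), as did 39.7% of the whole list, so the share among the members was near that of the list. By window this share was 57.1% at 3p12 (41.0 to 72.3%), 46.9% at 16p13-p11 (34.3 to 59.8%), 39.0% at 22q11 (30.1 to 48.4%), 28.6% at 17q12 (11.3 to 52.2%) and 7.14% at 15q11-q13 (0.181 to 33.9%). Of these 5 windows, 15q11-q13 had an interval below those of 3p12 and 16p13-p11, and all other pairs overlapped. At the other end, 25.3% of the members, 26.6% of the flank peaks and 34.1% of the peaks in the rest of the autosomes scored under 60.

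**Figure D3:**
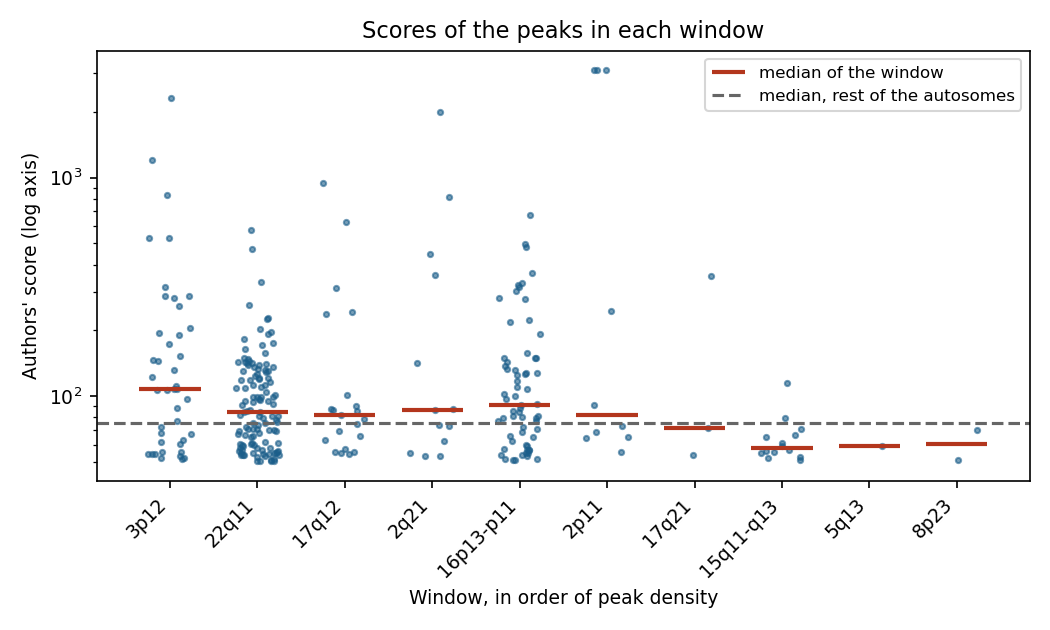
Authors' score (y axis, log scale) of every peak in the 10 windows with peaks, in order of density (x axis), with the median of each window as a red bar. Medians lie between 57.8 at 15q11-q13 and 107 at 3p12, the dashed line is the median of the rest of the autosomes, 75.4, and the 3 peaks at 3100 are all at 2p11.

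High scores were less frequent among the members than in the list. Scores reached 1000 in 6 members (2.08%, 0.768 to 4.48%), against 5.59% of the list and 5.62% of the rest of the autosomes (4.89 to 6.42%). They were the 3 peaks at 2p11, 2 at 3p12 and 1 at 2q21. In the flanks the share at 1000 or more was 8.33% (5.23 to 12.5%). None of the 118 peaks at 22q11 and none of the 64 at 16p13-p11 reached 1000 (upper limits 3.08% and 5.60%). Scores reached 3100 in 3 members (1.04%, 0.215 to 3.01%), against 2.45% of the list, and these intervals do not separate the members from the rest of the autosomes (2.49%, 2.01 to 3.05%). The 10 highest-scoring members came from 5 windows, and 9 of the 10 were also among the 10 widest.

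The difference was clearer among peaks in stretches of 10 or more, a class set by the number of peaks and not by their spacing alone. Outside this class lay 3 of the 6 members at 1000 or more, all in the closely spaced group of 6 peaks at 2p11. In the rest of the autosomes 44 of 203 such peaks lay outside it. In stretches of 10 or more, counting peaks beyond a window's edge, 229 members had a median score of 95.01 and 2065 peaks of the rest of the autosomes had 113. The share at 1000 or more was 1.31% (0.271 to 3.78%) in the windows and 7.70% (6.59 to 8.93%) in the rest. Their upper quartiles were 144 and 268, and their median widths 945 and 1120 bp. By stretch, 1 of the 9 with 10 or more peaks inside a window, that at 3p12, reached a score of 1000 (11.1%, 0.281 to 48.2%), against 42 of 66 in the rest (63.6%, 50.9 to 75.1%). A score of 3100 was reached in 0 of 9 (upper limit 33.6%) and 31 of 66 (47.0%, 34.6 to 59.7%). These 9 leave out the stretch of 17 peaks at the edge of 2q21, which is counted in the rest and scored up to 1989 inside the window and 3100 just outside, and the 6 peaks at 2p11 with 3 scores of 3100, which are too few for a stretch of 10. The stretches outside the windows include those beside centromeres, which were not located here, and they spanned more, with a median of 184 kb against 121 kb. Whether span or place on the chromosome goes with the difference was not tested.

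Among the other peaks, those in shorter stretches or alone, the medians stood in the opposite order, though no interval was computed for them. Here 59 members had a median score of 62.9 against 58.4 for 1547 peaks in the rest of the autosomes, and 42.4% against 55.6% scored under 60. The share at 100 or more was 16.9% (8.44 to 29.0%) against 14.7% (13.01 to 16.6%), with overlapping intervals. At 1000 or more it was 5.08% (1.06 to 14.1%), the 3 peaks at 2p11, against 2.84% (2.07 to 3.80%), which also overlapped. The 2 sets differed in make-up, since 17 of the 59 members and 760 of the 1547 other peaks had no peak within 100 kb. Whether this goes with the medians was not tested.

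**Figure D4:**
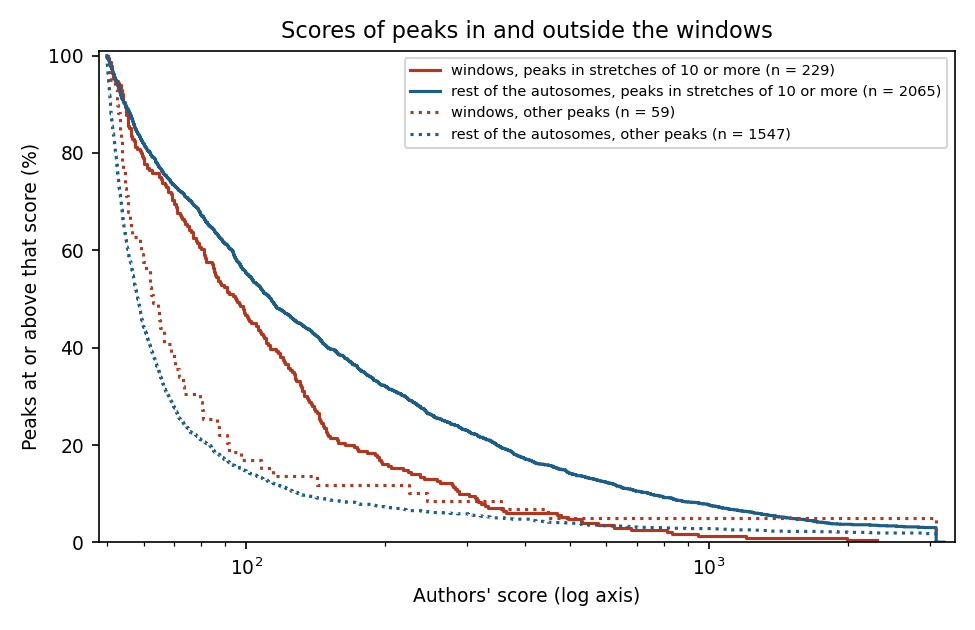
Share of peaks (y axis, percent) at or above each score (x axis, log scale), for peaks in stretches of 10 or more (solid lines) and all other peaks (dotted lines), in the windows (red) and the rest of the autosomes (blue). Above a score of 100 the solid red curve runs below the solid blue one, and at 1000 they stand at 1.31% and 7.70%. The 3 window peaks at 3100, all at 2p11, are in the dotted red curve.

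Width and score went together among the members, with a Spearman correlation of 0.88 over 288 peaks of 1 library, as over the whole list (0.89). Each member was therefore ranked among all peaks within 20% of its own width, with equal scores counted as lower and higher in equal parts. The median member scored above 52.9% of such peaks, and the median peak in the rest of the autosomes above 52.4%. At a given width the members' scores were thus placed much like those of other peaks. In the 7 windows with 10 or more peaks the median rank was 60.7% at 2p11, 58.9% at 17q12, 58.0% at 22q11, 53.3% at 16p13-p11, 47.7% at 3p12, 45.2% at 15q11-q13 and 40.3% at 2q21. The 7361 bp peak at 17q12 with a score of 946 was low for its width, above only 4.55% of 66 peaks of like width.

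Duplicated blocks could carry the same layout of peaks, so repeats of spacing were counted. Runs of 3 or more neighbouring peaks were sought whose midpoint distances recurred elsewhere in the list within 100 bp, in the same or the reverse order. Each pair of matching runs was counted, so a run with several matches counted several times. Pairs numbered 38 with both copies in windows, 837 with 1 copy in a window and 4429 with none. Longer repeats were rare. Pairs of runs of 5 or more peaks numbered 0, 2 and 12, and the longest run with both copies in windows had 4 peaks. These counts rise with the number of closely spaced peaks and were given no reference value, so they do not show whether any layout was shared.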

How the data were processed

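Per the submitters' processing notes, Bowtie 0.12.7, MACS and hg19 were used. The MACS version and settings, the use of the GFP library, duplicate removal and the treatment of reads with several positions are not stated in the labels or the file. The authors deposited 1 peak list, with a score per peak of unstated scale and no header. Scores were used only to describe and rank peaks within the list. They ran from 50.01 to 3221. Scores of 3100 or more were given to 103 peaks, many at exactly 3100, and such ties are not ordered by score. Starts were changed to count from 1.

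The members and settings were chosen with earlier results of these data known. Named peaks are the highest-scoring of each window, the 10 highest-scoring and the 10 widest; others named with the stretches were chosen after their values were seen. Lengths include unsequenced gaps, whose positions were not used. Alternatives were score cuts, other membership and bounds, joined peaks, other comparison regions, and leaving out each window. The density ratio was checked on simulated peaks placed at random and independently, so the check does not cover closely spaced peaks. Tables were handled with pandas 2.3.3 and NumPy 2.4.6 under Python 3.11.15, intervals came from SciPy 1.17.1, and figures were drawn with matplotlib 3.10.9.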

Additional observations from a re-analysis of the deposited data

How the results depend on the processing

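No paired analysis was possible because there was a single library per condition. With scores at or above the median, the windows held 157 peaks, the fold density against the rest of the autosomes was 3.24, the median score 133, the median width 1256 bp and the share scoring 100 or more 74.5%. With scores of 100 or more, there were 117 peaks with a median score of 150 and a median width of 1445 bp. Higher scores and widths follow from these cuts. With peaks within 5 kb joined, there were 106 regions, 5.11% of all, at 2.01-fold the rest. With peaks within 100 kb joined, there were 36, 3.13% of all, at 1.20-fold. With each window shortened by 0.25 Mb at both ends, the share of all peaks was 5.19%, the fold against the rest 2.37 and that against the flanks 0.652; extended by 0.25 Mb, the share was 7.71%. Against the rest without chromosomes 7, 9 and 20 and the fullest stretches the fold was 6.20. Those stretches were picked from the same peaks and left out of the rest only. Without the 3 fullest flanks, an alternative chosen after seeing the data, the fold against flanks turned to 3.46. With each window left out in turn, the fold against the rest ran from 1.87 to 3.24, that against the flanks from 0.580 to 1.36, the median score from 81.5 to 86.9, the median width from 836 to 904 bp and the share scoring 100 or more from 37.8 to 42.3%. Counting any overlap with a window gave 289 peaks. With read depth unknown, an empty window cannot be given a limit of detection.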
